A study of Rattus norvegicus with 16 samples.

Results

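The genes described here mark the endothelial cells of the glomerulus, the fenestrated capillary lining on the blood side of the kidney filter. They are Kdr, Flt1, Pecam1, Cdh5, Tek, Tie1, Ehd3, Emcn, Plvap and Eng, taken by name as known markers of these cells, at a time when earlier results of these data were known, and 9 of the 10 are among the 13222 genes of the table. Pecam1 was not analysed here. Poly(A) RNA was sequenced from glomeruli of 16 male Wistar rats, sieved from the kidneys on day 11, in 4 groups of 4. The control group was healthy rats. The PAN group received puromycin aminonucleoside intravenously, a toxin that injures podocytes and gives a rat model of nephrotic syndrome. The other groups received PAN and, daily by gavage, either pioglitazone or GQ-16, both agonists of the nuclear receptor PPARγ, and the protocol names a sham vehicle as the third gavage. Whether the healthy rats were gavaged, the ages of the rats and the doses are not given in the sources used here. No label ties rats to a litter or cage, and each of the 16 rats was treated as independent. The limma p-values set group differences against the spread between rats of the same group.

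Glomerular endothelium depends on signals from its neighbours. Podocytes secrete VEGF-A, which acts on endothelial VEGFR2 (Kdr), while VEGFR1 (Flt1) binds the same ligand strongly and signals weakly. Angiopoietin-1 activates the receptor TIE2 (Tek), angiopoietin-2 often opposes it, and TIE1 (Tie1) modulates TIE2. VE-cadherin (Cdh5) holds neighbouring endothelial cells together, endomucin (Emcn) is part of the sugar-rich coat of the cell surface, and EHD3 (Ehd3) is an endocytic protein typical of glomerular endothelium within the kidney. Plvap encodes the protein of the diaphragms that close fenestrae in most fenestrated capillaries and that mature glomerular capillaries largely lack. Eng encodes endoglin, a co-receptor for BMP9 and TGFβ that works with the receptor ALK1 (Acvrl1).

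Promoters of 7 of the 9 genes were found in RefSeq (assembly GRCr8), each as 300 bases ending just past the gene start. Cdh5 and Tek were not matched. Many endothelial genes carry sites for ETS-family factors such as ERG, whose sites often read AGGAAG. On either strand, AGGAAG was found in 6 of the 7 promoters and in 34.3% of 27457 rat promoters, and Kdr was the one without it. The shorter GGAA, which lies inside AGGAAG, was in all 7 and in 95.8% of all promoters. GATAAG, which factors of the GATA family bind, was in 0 of the 7 and in 6.91% of all promoters. Of the 4 promoters shown, Plvap, Eng and Ehd3 belong to the genes that stood apart in the comparisons, and Flt1 stands for the genes that kept together. Capitals mark AGGAAG or its reverse complement, and the sequences run 5′ to 3′ along the gene. They lie at chr16:18231230-18231529 (minus strand), chr3:36332029-36332328 (plus strand), chr6:27417396-27417695 (minus strand) and chr12:12333180-12333479 (plus strand).
Plvap promoter: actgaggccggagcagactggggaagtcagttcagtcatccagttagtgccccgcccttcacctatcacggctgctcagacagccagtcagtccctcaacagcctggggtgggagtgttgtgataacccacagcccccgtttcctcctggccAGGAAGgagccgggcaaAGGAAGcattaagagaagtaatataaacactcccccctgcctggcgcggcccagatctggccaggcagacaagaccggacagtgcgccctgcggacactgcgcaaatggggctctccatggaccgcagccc
Eng promoter: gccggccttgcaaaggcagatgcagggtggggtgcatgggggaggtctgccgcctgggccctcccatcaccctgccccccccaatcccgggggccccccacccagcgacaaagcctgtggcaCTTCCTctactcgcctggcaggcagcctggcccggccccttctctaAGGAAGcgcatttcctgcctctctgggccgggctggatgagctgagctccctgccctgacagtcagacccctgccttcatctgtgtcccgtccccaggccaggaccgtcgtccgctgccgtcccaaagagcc
Ehd3 promoter: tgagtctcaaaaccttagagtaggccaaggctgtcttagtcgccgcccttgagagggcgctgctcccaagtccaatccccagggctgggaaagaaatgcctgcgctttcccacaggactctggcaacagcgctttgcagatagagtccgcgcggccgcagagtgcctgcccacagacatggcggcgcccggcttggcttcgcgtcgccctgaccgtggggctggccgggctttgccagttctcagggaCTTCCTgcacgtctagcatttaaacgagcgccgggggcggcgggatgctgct
Flt1 promoter: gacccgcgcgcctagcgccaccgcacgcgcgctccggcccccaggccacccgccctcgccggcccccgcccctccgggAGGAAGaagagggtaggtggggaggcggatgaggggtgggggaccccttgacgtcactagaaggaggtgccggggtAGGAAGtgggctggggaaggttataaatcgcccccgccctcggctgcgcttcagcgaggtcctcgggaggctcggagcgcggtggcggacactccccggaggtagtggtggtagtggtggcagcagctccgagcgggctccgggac
Plvap and Flt1 each held 2 forward matches, Eng 1 in each direction and Ehd3 1 reverse match. A match is a string of letters in this window and was not tested as a binding site.

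Levels are given as CPM, reads of a gene scaled to a common library total, in the order of replicates 1 to 4. Libraries held 13351137 to 21977663 reads, so a floor of 3 reads corresponds to 0.137 to 0.225 CPM and none of the 9 genes was near it. Mitochondrial transcripts took 13.9% to 39.6% of reads in control libraries and 5.98% to 10.8% in PAN libraries. With totals as the scale, the median gene was 0.28 higher in PAN than in control on the log2 scale. After median-ratio scaling, which sets each library by its median gene, that median was -0.003. The part of mitochondrial reads in this shift was not tested. Changes are on the CPM scale where no scale is named, and a change near 0.28 on the CPM scale is that of the median gene. Library numbers in the sample names were 25 or higher in 3 of 4 PAN rats (replicates 1 to 3). This held for 0 of 4 control rats and, in the drug groups, only for pioglitazone replicate 4 (34) and GQ-16 replicate 4 (27). The comparisons of each drug with PAN are therefore uneven in library number, as is that of PAN with control. The part of library number in the results was not tested beyond the values given. In whole glomeruli, fewer endothelial cells and less RNA per endothelial cell cannot be told apart.

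The 9 genes were present in every rat. Their presence cannot tell glomeruli from other kidney tissue, since other vessels also hold endothelial cells. Summed over the 9 genes, control rats held 6336 to 8922 CPM, PAN rats 5749 to 8905 CPM, pioglitazone rats 6525 to 11843 CPM and GQ-16 rats 5974 to 7725 CPM. The groups overlapped, and PAN replicate 4 was the lowest and pioglitazone replicate 1 the highest of all 16 rats.

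**Figure D1:**
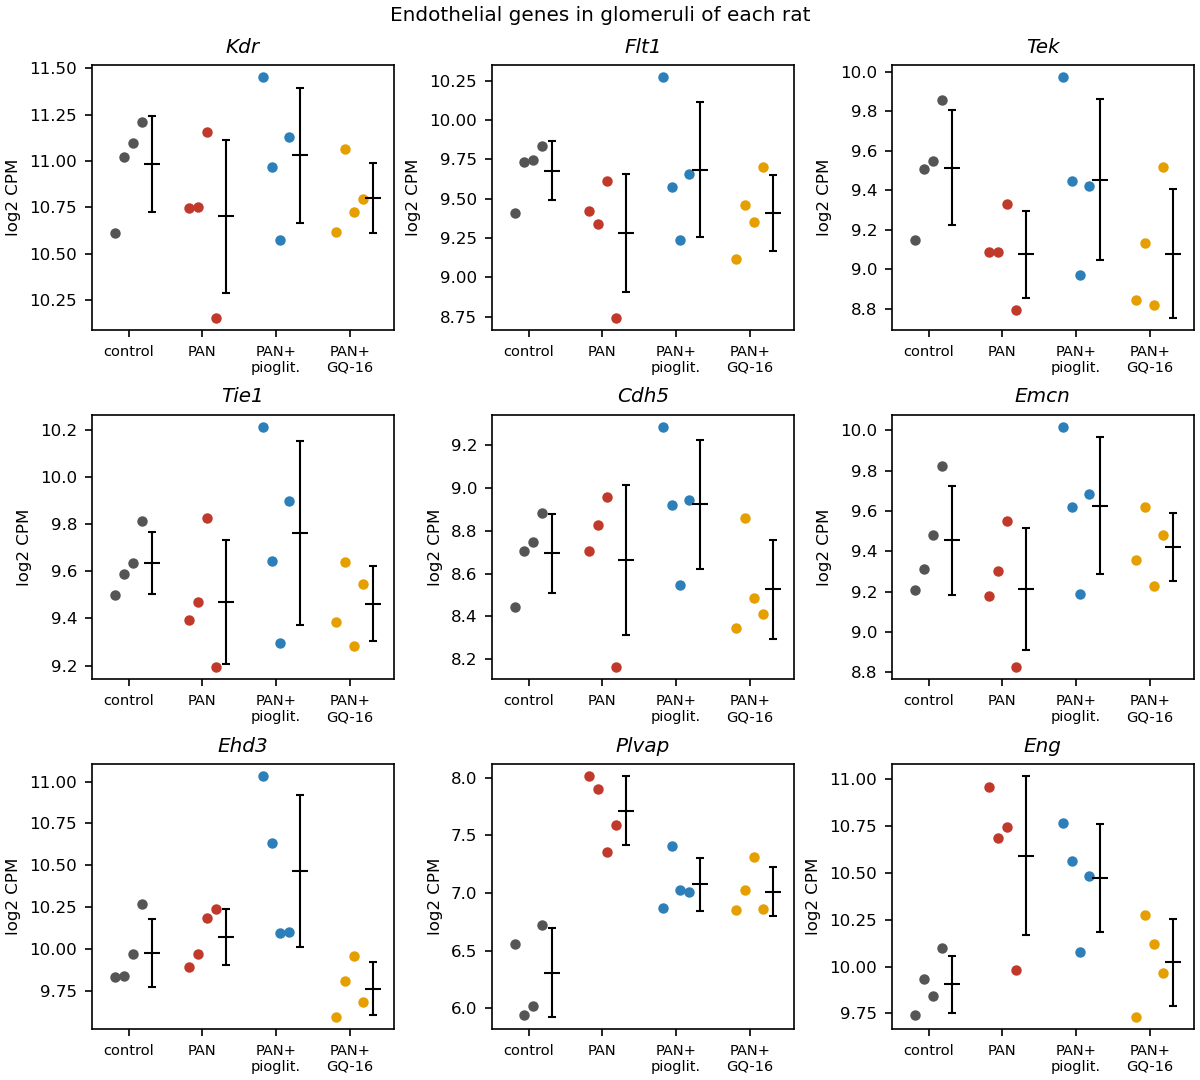
Log2 CPM (vertical axis, own range in each panel) of the 9 endothelial genes in each rat (points), with group mean and SD (bars, n = 4). All 4 PAN rats lie above all control rats for Plvap, PAN replicate 4 is the lowest PAN rat for Eng, and the other genes overlap between PAN and control.

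PAN glomeruli held more Plvap transcript than healthy ones, and more Eng on the CPM scale, while none of the other 7 endothelial genes passed the test in either direction. The mean level of Plvap went from 81.5 ± 21.6 CPM in healthy rats to 213 ± 42.9 CPM after PAN (SD, n = 4 each). That of Eng went from 963 ± 103 to 1591 ± 414 CPM. In limma, 2 of the 9 genes were called (adjusted p under 0.05, over all 13222 genes) against 22.3% of all genes, both of them higher, against 21.7% of all genes called higher, and 0 lower, against 0.522%. After median-ratio scaling 1 of the 9 was called, against 8.63% of all genes, and it was higher (7.12% of all genes were, and 1.51% lower). By either scale the share of the 9 genes called is near the share of all genes. The median change of the 9 genes was -0.16, beside 0.28 for all genes, and -0.47 beside -0.003 after median-ratio scaling. On the CPM scale it was -0.07 without PAN replicate 4, -0.10 without control replicate 4 and -0.28 without PAN replicate 3, and -0.33 with the library number as a covariate.

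Plvap (ENSRNOG00000017676), the diaphragm gene, stood at 94.2, 61.5, 65.0 and 105 CPM in control rats and at 258, 239, 164 and 193 CPM in PAN rats. Pioglitazone rats held 117, 169.6, 130.4 and 129 CPM, and GQ-16 rats 115, 130.1, 159 and 117 CPM. Every PAN rat was above every control rat, as were all 8 drug-treated rats. The means of the treated groups lay between those of control and PAN, though pioglitazone replicate 2 was above PAN replicate 3. Of the 9 genes only Plvap had no overlap between PAN and control, a pattern seen in 23.3% of all genes. It rose by 1.39 on the log2 scale (SE 0.193, 95% interval 0.98 to 1.80, limma adjusted p = 0.000633), and by 1.09 after median-ratio scaling (adjusted p = 0.00139). Leaving out any 1 rat gave changes of 1.27 to 1.53 and left the call in place. PAN replicate 4, the PAN rat with a library number below 25, stood at 193 CPM, above all controls. With only the libraries numbered 15 or lower, which leaves that 1 PAN rat, assumed to vary like the other groups, the change was 1.27 with adjusted p = 0.126.

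Eng (ENSRNOG00000050190), the BMP9 co-receptor gene, stood at 856, 978, 919 and 1098 CPM in control rats and at 1989, 1648, 1715 and 1010.3 CPM in PAN rats. Pioglitazone rats held 1745, 1514, 1080.3 and 1432 CPM, and GQ-16 rats 849.9, 1239, 1112 and 999 CPM. PAN replicates 1 to 3 were above all controls, and PAN replicate 4 lay within the control range. Eng rose by 0.69 (SE 0.216, 95% interval 0.23 to 1.14, limma adjusted p = 0.0353) on the CPM scale. After median-ratio scaling its change was 0.38 (adjusted p = 0.294). On the CPM scale the call was also lost with the library number (25 or higher) as a covariate (0.50, adjusted p = 0.332), with only the 2 groups in the fit (adjusted p = 0.0738), and when control replicate 2 (adjusted p = 0.0914), control replicate 3 (0.104), PAN replicate 1 (0.118), PAN replicate 2 (0.0833) or PAN replicate 3 (0.079) was left out. With only the libraries numbered 15 or lower, its change was 0.08, and -0.17 with median-ratio scaling as well.

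The VEGF receptors were not called between PAN and control. Kdr (ENSRNOG00000046829), the main signalling receptor, stood at 1564, 2078, 2186 and 2369.6 CPM in control rats and at 1714, 1723, 2281 and 1138 CPM in PAN rats. Its change was -0.28 (95% interval -0.79 to 0.22, adjusted p = 0.363), and -0.59 after median-ratio scaling (adjusted p = 0.183). Flt1 (ENSRNOG00000000940), the high-affinity receptor, stood at 679, 850.2, 857 and 911 CPM in control rats and at 687, 649, 782 and 428 CPM in PAN rats. The groups overlapped for both genes, and PAN replicate 4 was the lowest of all 16 rats for both. The change of Flt1 was -0.40 (95% interval -0.87 to 0.08, adjusted p = 0.183), and -0.70 (adjusted p = 0.0972) after median-ratio scaling. Flt1 makes a membrane form and a soluble form, which gene-level counts do not separate.

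The angiopoietin receptors gave like values. Tek (ENSRNOG00000008587) stood at 568, 727, 749 and 927 CPM in control rats and at 544, 545, 644 and 443 CPM in PAN rats, so that only control replicate 1 and PAN replicate 3 reached into the other group's range. Its change was -0.44 (95% interval -0.91 to 0.03, adjusted p = 0.138), and -0.74 (adjusted p = 0.0769) after median-ratio scaling. With quantile normalization Tek was called lower (-0.81, adjusted p = 0.0388), the one alternative among those run that called it. Tie1 (ENSRNOG00000020173) stood at 724, 769.9, 795 and 899 CPM in control rats and at 672, 708, 907 and 585 CPM in PAN rats. PAN replicates 1, 2 and 4 were below all controls and PAN replicate 3 above all of them. Its change was -0.16 (95% interval -0.57 to 0.24, adjusted p = 0.51), and -0.47 (adjusted p = 0.186) after median-ratio scaling.

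The junction, coat and endocytic genes overlapped between PAN and control. Cdh5 (ENSRNOG00000013324) stood at 348, 418, 431 and 472 CPM in control rats and at 417, 454, 498 and 286 CPM in PAN rats, a change of -0.03 (95% interval -0.44 to 0.37, adjusted p = 0.903), and -0.33 (adjusted p = 0.355) after median-ratio scaling. Emcn (ENSRNOG00000022910) stood at 591, 635, 714 and 906 CPM in control rats and at 579, 632, 750.5 and 453 CPM in PAN rats, a change of -0.24 (95% interval -0.66 to 0.18, adjusted p = 0.358), and -0.54 (adjusted p = 0.142) after median-ratio scaling. For both genes the lowest rat was PAN replicate 4. Ehd3 (ENSRNOG00000007744) stood at 912, 918, 1003 and 1233 CPM in control rats and at 951, 1005, 1164 and 1210.25 CPM in PAN rats. Here PAN replicate 4 was the highest PAN rat, unlike for the other genes of the capillary wall. Its change was 0.09 (95% interval -0.34 to 0.53, adjusted p = 0.73) on the CPM scale and -0.21 (adjusted p = 0.572) after median-ratio scaling, so its sign depends on the scale.

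After median-ratio scaling, all 7 genes other than Plvap and Eng had changes below 0 in PAN, from -0.74 to -0.21 with a median of -0.54, and 5 of the 7 had an unadjusted p under 0.05, as had 3511 of all 13222 genes. None of the 7 passed the adjusted threshold. On the CPM scale 6 of the 7 were below 0, from -0.44 to 0.09, and none had an unadjusted p under 0.05, beside 5562 of all genes. These 7 were set apart from Plvap and Eng after their values were seen.

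**Figure D2:**
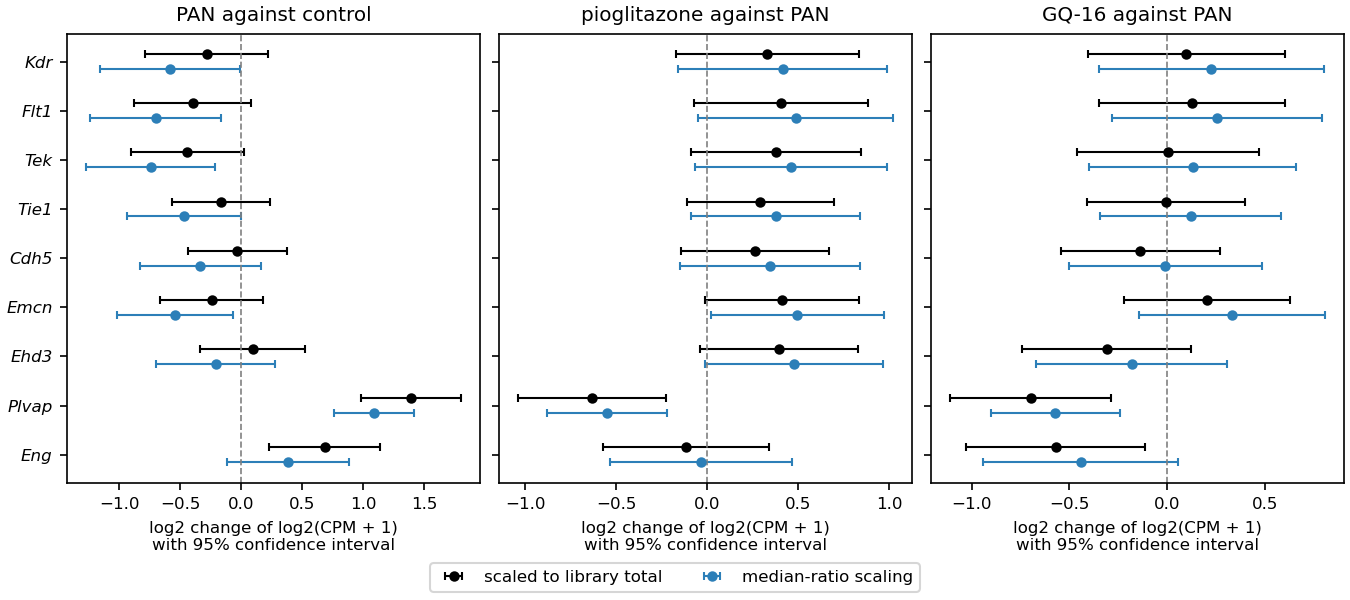
Log2 change (horizontal axis, log2 of CPM + 1) of the 9 genes with 95% confidence intervals from limma, for PAN against control and for each drug against PAN, scaled to library total (black) or by median ratio (blue). Plvap is at 1.39 in PAN against control and at -0.63 and -0.70 with the drugs, and the intervals of Kdr and of the 6 genes listed below it cross 0 on the black scale in all 3 panels.

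A ratio of 2 genes within a library does not depend on how the library was scaled. Plvap was set against Ehd3, the diaphragm gene against the gene typical of glomerular endothelium. The log2 ratio was -3.26, -3.88, -3.93 and -3.54 in control rats and -1.88, -2.07, -2.82 and -2.64 in PAN rats, with no overlap. The difference was 1.30, with exact permutation p = 0.0286, the smallest that 4 against 4 rats allow, and p = 0.129 after Benjamini-Hochberg adjustment over the 18 ratio comparisons made. The Tie1 to Tek log2 ratio was 0.35, 0.08, 0.09 and -0.04 in control rats and 0.31, 0.38, 0.49 and 0.40 in PAN rats. Control replicate 1 lay within the PAN range, and the difference of 0.28 had exact permutation p = 0.0571 (adjusted p = 0.206). The Flt1 to Kdr ratio differed by -0.11 (exact permutation p = 0.143, adjusted p = 0.321).

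**Figure D3:**
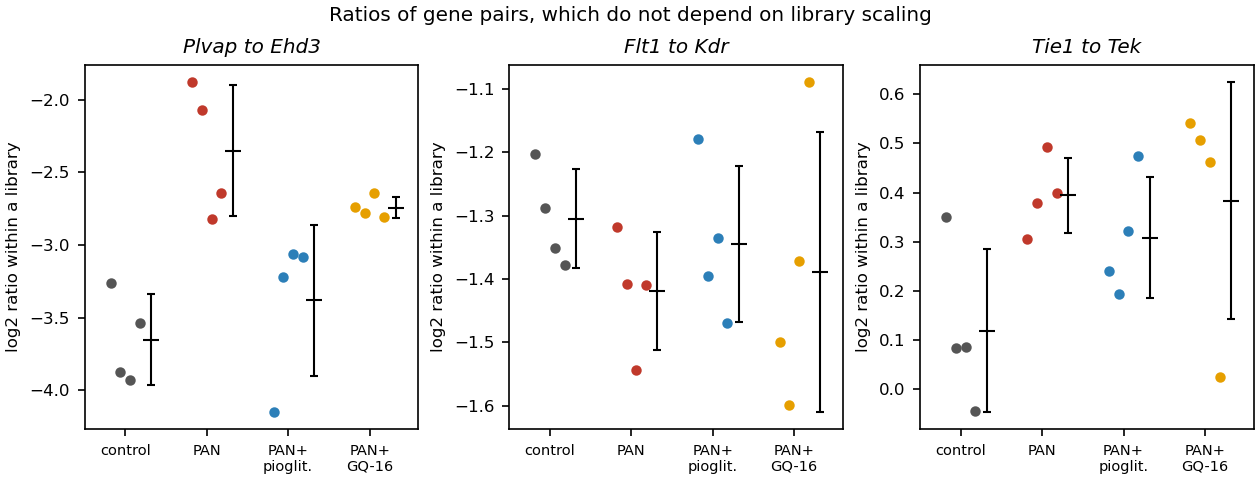
Log2 ratio of 2 genes within each library (vertical axis, no unit) for Plvap to Ehd3, Flt1 to Kdr and Tie1 to Tek, one point per rat, with group mean and SD (n = 4). For Plvap to Ehd3 the control and pioglitazone rats lie at or below -3.06, and the PAN and GQ-16 rats at or above -2.82.

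With pioglitazone, 0 of the 9 genes were called against PAN, as were 0% of all genes, so that no change in these genes was detectable with 4 rats a group. At an unadjusted p under 0.05 there were 495 of all genes and 1 of the 9, and after median-ratio scaling 733 and 2. The count of the 9 was 6 without pioglitazone replicate 3 (873 of all genes), 3 without PAN replicate 3, 2 without control replicate 4 or pioglitazone replicate 4, and 4 with the library number as a covariate. In the fit of all rats on the CPM scale the 1 gene was Plvap, at 136 ± 22.9 CPM against 213 ± 42.9 CPM in PAN, a difference of -0.63 (95% interval -1.04 to -0.22, limma adjusted p = 0.916), and -0.55 (adjusted p = 0.776) after median-ratio scaling, where the second gene was Emcn at 0.49 (adjusted p = 0.776). Of the 9 genes none was without overlap, as were 2.76% of all genes. For Plvap pioglitazone replicate 2 at 169.6 CPM was above PAN replicate 3 at 164 CPM. Eng differed by -0.12 (95% interval -0.58 to 0.34, adjusted p = 0.931).

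The other 7 genes all had higher means with pioglitazone than in PAN, by 0.26 to 0.41 on the log2 scale, and by 0.35 to 0.49 after median-ratio scaling. All genes had a median difference of -0.09 and -0.01 on these scales. Kdr was 2799.9, 2004, 1526 and 2238 CPM with pioglitazone, and Flt1 was 1235, 761, 604 and 807 CPM. Tek was 1005, 699, 502 and 687 CPM, and Tie1 was 1187, 799.6, 628 and 955 CPM. In each of these 4 receptor genes replicate 1 was the highest of all 16 rats and replicate 3 the lowest of its group. Cdh5 was 625, 485, 374 and 493 CPM, Emcn 1036, 786, 583 and 823 CPM, and Ehd3 2093, 1589, 1096 and 1101 CPM. Replicate 1 was again the highest of all rats for these 3 genes. The summed level of the 9 genes was 11843 CPM in that rat, beside 6525 to 8808 CPM in the other pioglitazone rats. The median difference of the 9 genes from PAN was 0.33 with all rats, 0.19 without pioglitazone replicate 1 and 0.20 without PAN replicate 4.

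With GQ-16, 0 of the 9 genes were called against PAN, beside 0.0151% of all genes, and 2 of the 9 had an unadjusted p under 0.05 beside 1094 of all genes (1 of the 9 without PAN replicate 1 or GQ-16 replicate 1). Plvap was 130.3 ± 20.3 CPM, a difference of -0.70 from PAN (95% interval -1.11 to -0.29, limma adjusted p = 0.403), and -0.57 after median-ratio scaling. All 4 GQ-16 rats, at 159 CPM or less, were below all PAN rats, at 164 CPM or more, and the same lack of overlap was seen in 3.62% of all genes. After median-ratio scaling the groups overlapped, with Plvap at 151 CPM in GQ-16 replicate 2 and at 149.6 CPM in PAN replicate 3. Eng was 1050.03 ± 165 CPM, a difference of -0.57 (95% interval -1.03 to -0.11, limma adjusted p = 0.493), and -0.44 (adjusted p = 0.778) after median-ratio scaling. PAN replicate 4 lay within the GQ-16 range for Eng.

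The other 7 genes differed from PAN by -0.31 to 0.21 with GQ-16, 4 of them above 0, and by -0.18 to 0.33 with 5 above 0 after median-ratio scaling. The median of all genes was -0.11 and 0.006 on these scales. Kdr was 1572, 2139, 1694 and 1773 CPM and Flt1 556, 705, 654 and 833 CPM. Tek was 459, 561, 452 and 734 CPM and Tie1 668, 798, 623 and 747 CPM. Cdh5 was 325, 465, 358 and 341 CPM, Emcn 655, 787, 599 and 714 CPM, and Ehd3 775, 899, 997 and 824 CPM. The rats were closer together here than with pioglitazone, and replicate 2 was the highest for Kdr, Tie1, Cdh5 and Emcn.

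The drugs were compared with each other as 1 pair, at doses not given in the sources used here and on the same day 11. None of the 9 genes was called between them, as were 0% of all genes, and 786 of all genes and 1 of the 9 had an unadjusted p under 0.05. The 1 of 9 became 5 without pioglitazone replicate 3, 3 without PAN replicate 4 or GQ-16 replicate 2, and 2 without PAN replicate 1 or GQ-16 replicate 4. With all rats Ehd3 was that gene, lower with GQ-16 than with pioglitazone by 0.70 on the log2 scale (95% interval of the difference -1.13 to -0.27, limma adjusted p = 0.724). All 4 GQ-16 rats, at most 997 CPM, were below all 4 pioglitazone rats, at least 1096 CPM, a lack of overlap seen in 2.14% of all genes. After median-ratio scaling the groups overlapped, with Ehd3 at 1041 CPM in GQ-16 replicate 2 and at 973 CPM in pioglitazone replicate 4. All 9 genes had lower means with GQ-16, from -0.70 to -0.06, beside a median of -0.02 for all genes, and from -0.66 to -0.02 beside 0.02 after median-ratio scaling. The median of the 9 was -0.30, and it was -0.15 without pioglitazone replicate 1 and -0.45 without pioglitazone replicate 3. For Plvap the difference was -0.06 with an interval of -0.47 to 0.35, and for Eng it was -0.45 with an interval of -0.91 to 0.01. These intervals do not show that the drugs act alike on either gene.

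The Plvap to Ehd3 ratio did not overlap between the drug groups, but no ratio comparison passed after adjustment. The share of other gene pairs without overlap was not computed, here or for PAN against control. The log2 value of the ratio was -4.15, -3.22, -3.06 and -3.09 with pioglitazone and -2.74, -2.78, -2.64 and -2.81 with GQ-16. Pioglitazone replicate 1 was set apart from its group by Dixon's test (gap of 0.853 of the range). The pioglitazone rats lay below all PAN rats (difference -1.03) and below all GQ-16 rats (difference 0.64 for GQ-16 minus pioglitazone), each with exact permutation p = 0.0286 and adjusted p = 0.129. GQ-16 and PAN differed by -0.39 (exact permutation p = 0.257, adjusted p = 0.514). Pioglitazone and control differed by 0.27 (exact permutation p = 0.4, adjusted p = 0.643), and GQ-16 and control by 0.91 (exact permutation p = 0.0286, adjusted p = 0.129). The separation of the drugs came mostly from Ehd3, since the mean of Plvap was 136 and 130 CPM under pioglitazone and GQ-16, while that of Ehd3 was 1470 ± 475 and 874 ± 96.8 CPM. Without pioglitazone replicate 1 the difference between the drugs was 0.38 (exact permutation p = 0.0286, again the smallest allowed). Leaving out any 1 rat of the compared groups gave 0.381 to 0.745, with exact permutation p of 0.0286 to 0.0857. Pioglitazone minus PAN then ran from -1.18 to -0.77 and GQ-16 minus control from 0.817 to 1.04, each with exact permutation p of 0.0286 to 0.0571. Pioglitazone minus control ran from 0.165 to 0.528, and GQ-16 minus PAN from -0.546 to -0.231.

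Against healthy rats, 1 of the 9 genes was called with pioglitazone, beside 4.98% of all genes. Plvap was higher by 0.76 (95% interval 0.35 to 1.17, limma adjusted p = 0.0352), without overlap, as were 14.1% of all genes. After median-ratio scaling its difference was 0.54 (adjusted p = 0.0726) and 0 of the 9 were called, beside 2.84% of all genes. The call was also lost without control replicate 2 (adjusted p = 0.133), control replicate 3 (0.141), pioglitazone replicate 2 (0.124), pioglitazone replicate 3 (0.0518) or pioglitazone replicate 4 (0.0788). With GQ-16, 0 of the 9 were called against control, beside 0.151% of all genes, and 1 had an unadjusted p under 0.05, beside 3165 of all 13222 genes. This was Plvap, at a difference of 0.70 (95% interval 0.29 to 1.10, limma adjusted p = 0.0927), and 0.52 (adjusted p = 0.0816) after median-ratio scaling, again without overlap, as were 6.01% of all genes. It was called without control replicate 1 (adjusted p = 0.0318). Eng differed from control by 0.57 with pioglitazone (adjusted p = 0.119) and by 0.12 with GQ-16 (adjusted p = 0.735), and by 0.35 and -0.06 after median-ratio scaling. The other 7 genes lay -0.06 to 0.49 from control under pioglitazone, while GQ-16 values were -0.44 to -0.03. After median-ratio scaling these ranges were -0.28 to 0.27 and -0.61 to -0.21. All of these comparisons share the same 4 control rats, and those against PAN share the same 4 PAN rats.

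Ligands and partners of these receptors were read from a list of 19 genes of the VEGF and angiopoietin pathways, 16 of them in the table. In PAN, 3 of the 16 were called higher and 0 lower, and 2 higher after median-ratio scaling, which is near the 21.7% and 7.12% of all genes called higher on these scales. The list median was 0.20, and -0.10 after median-ratio scaling, beside 0.28 and -0.003 for all genes. Vegfd, a ligand of VEGF receptors, rose from 14.2 ± 5.28 to 76.4 ± 18.5 CPM (log2 change 2.39, SE 0.267, limma adjusted p = 0.000151), and stood at 55.1 ± 6.96 and 46.7 ± 17.5 CPM under pioglitazone and GQ-16. Angpt2, which encodes angiopoietin-2, rose from 19.3 ± 8.59 to 47.7 ± 6.84 CPM (1.35, SE 0.297, adjusted p = 0.0072), and stood at 45.6 ± 10.1 and 27.3 ± 10.6 CPM with the drugs. Apln, the ligand of the apelin receptor, rose from 3.53 ± 0.893 to 12.4 ± 10.5 CPM (1.32, SE 0.341, adjusted p = 0.0167), and was not called after median-ratio scaling (adjusted p = 0.0641). Vegfa, the podocyte ligand of Kdr and Flt1, stood at 1119.7 ± 635 CPM in healthy rats and at 1534 ± 237 CPM after PAN, a difference of 0.61 that did not pass (adjusted p = 0.239). Angpt1, the TIE2 agonist, differed by -0.09 (adjusted p = 0.756).

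**Figure D4:**
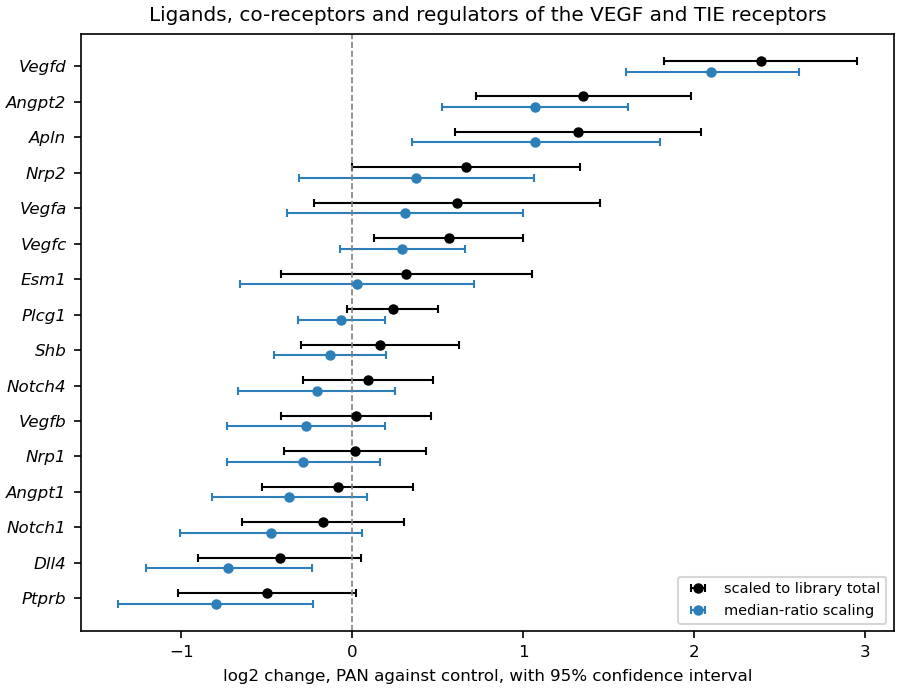
Log2 change in PAN against control (horizontal axis) of 16 ligands, co-receptors and regulators of the VEGF and TIE receptors, with 95% confidence intervals, scaled to library total (black) or by median ratio (blue). Vegfd at 2.39, Angpt2 at 1.35 and Apln at 1.32 are the 3 called on the black scale.

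Of 16 receptor and target genes of the BMP9 pathway, 0 were called in either direction in PAN on the CPM scale, beside 22.3% of all genes. In the same limma fit 3 had an unadjusted p under 0.05, beside 5562 of all 13222 genes. The list medians were 0.19 and -0.11 on the CPM and median-ratio scales. After median-ratio scaling 1 gene was called lower (1.51% of all genes were). That gene was Tgfbr2, a TGFβ receptor, at -0.52 (adjusted p = 0.0674) and -0.82 (adjusted p = 0.0305) on the 2 scales, and it was named after its values were seen. Acvrl1, the receptor that works with endoglin, stood at 355 ± 58.8 CPM in healthy rats and at 411 ± 73.7 CPM after PAN, a difference of 0.20 (adjusted p = 0.388). Of 13 genes of the endothelial junction, 1 was called higher, beside 21.7% of all genes. It was Cd99, a leukocyte transmigration protein, at 0.78 (adjusted p = 0.0328), and 0.48 (adjusted p = 0.0743) after median-ratio scaling, where 0 were called higher and 2 lower (1.51% of all genes were), Pkp4 at -0.44 (adjusted p = 0.017) and Afdn at -0.49 (adjusted p = 0.0493), named after their values were seen. The list medians were 0.25 and -0.05.

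Of 26 other genes of endothelial cells in general, 1 was called in PAN, beside 22.3% of all genes (1 and 8.63% after median-ratio scaling), with a list median of -0.04 (-0.34 after median-ratio scaling). It was Clec14a, an endothelial surface lectin, which rose from 29.8 ± 4.80 to 64.5 ± 16.8 CPM (1.07, adjusted p = 0.00288), and by 0.77 (adjusted p = 0.0477) after median-ratio scaling. Nos3, the endothelial nitric oxide synthase, differed by -0.22 (adjusted p = 0.439) and Erg, the ETS factor, by -0.12 (adjusted p = 0.648). Of 10 genes enriched in glomerular over other kidney endothelium, 2 were called higher (21.7% of all genes were), and the list median was 0.11, and -0.20 after median-ratio scaling. Sost, a WNT antagonist, rose from 8.43 ± 10.7 to 58.5 ± 41.4 CPM (2.99, SE 0.702, adjusted p = 0.0106), and Lpl, lipoprotein lipase, rose by 0.74 (adjusted p = 0.0137). Lpl was not called after median-ratio scaling (0.44, adjusted p = 0.229). Plat, the tissue plasminogen activator, differed by 0.48 (adjusted p = 0.206).

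Of 11 genes of arterial, venous, peritubular or lymphatic endothelium, 3 were called higher in PAN, near the 21.7% of all genes, and the list median was -0.03, and -0.33 after median-ratio scaling. They were Gja5, an arterial connexin also made by renin cells, at 1.02 (adjusted p = 0.00811), the venous factor Nr2f2 at 0.66 (adjusted p = 0.0403) and Igfbp3 at 1.15 (adjusted p = 0.0488). After median-ratio scaling only Gja5 was called (0.72, adjusted p = 0.0252). Of 13 genes of endothelial activation and leukocyte adhesion, 4 were called higher, beside 21.7% of all genes, and 0 lower. After median-ratio scaling 2 were called higher, where 7.12% of all genes were. The list medians were 0.49 and 0.19. Angpt2, described above, was among them, as was Vcam1, a leukocyte adhesion molecule, at 0.90 (adjusted p = 0.0344). None of these lists had a gene called between either drug and PAN, where the 7 list medians were -0.12 to 0.23 for pioglitazone, while those for GQ-16 were -0.41 to -0.07. After median-ratio scaling they were -0.04 to 0.31, and -0.30 to 0.06 for GQ-16.

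Markers of other glomerular cells moved in the same comparison, and their part in the results above was not tested. Of 13 mesangial and smooth muscle genes, 11 were called higher in PAN, and 10 after median-ratio scaling, beside 21.7% and 7.12% of all genes. Summed, they gave 437 to 1082 CPM in healthy rats, 2008 to 3230 CPM in PAN rats, 1537 to 2082 CPM in pioglitazone rats and 946 to 1705 CPM in GQ-16 rats, so the PAN and control ranges did not overlap. Of 15 podocyte genes, 4 were called higher, and 1 after median-ratio scaling, which is near the 21.7% and 7.12% of all genes. Of the 15, 14 had changes above 0. An unadjusted p under 0.05 was found for 11 (8 after median-ratio scaling), beside 5562 and 3511 of all 13222 genes. The median of that list was 1.43, and 1.13 after median-ratio scaling, beside 0.28 and -0.003 for all genes. The podocyte sum was 10920.3 CPM in control replicate 1 and 3020 to 5489 CPM in the other controls, beside 8610.26 to 12642 CPM in PAN. Leukocyte and platelet genes summed to 519 to 854 CPM in control and 772 to 1717 CPM in PAN. Of the 13, 6 were called higher, and 0 after median-ratio scaling, beside 21.7% and 7.12% of all genes. Tubule genes summed to 5024 to 8761 CPM in control and 3099 to 9455 CPM in PAN, with 4 of 14 called lower, and 3 after median-ratio scaling, beside 0.522% and 1.51% of all genes. With the podocyte marker score as a covariate, Plvap was still called in PAN, and Eng differed by 0.78 (adjusted p = 0.0738).

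**Figure D5:**
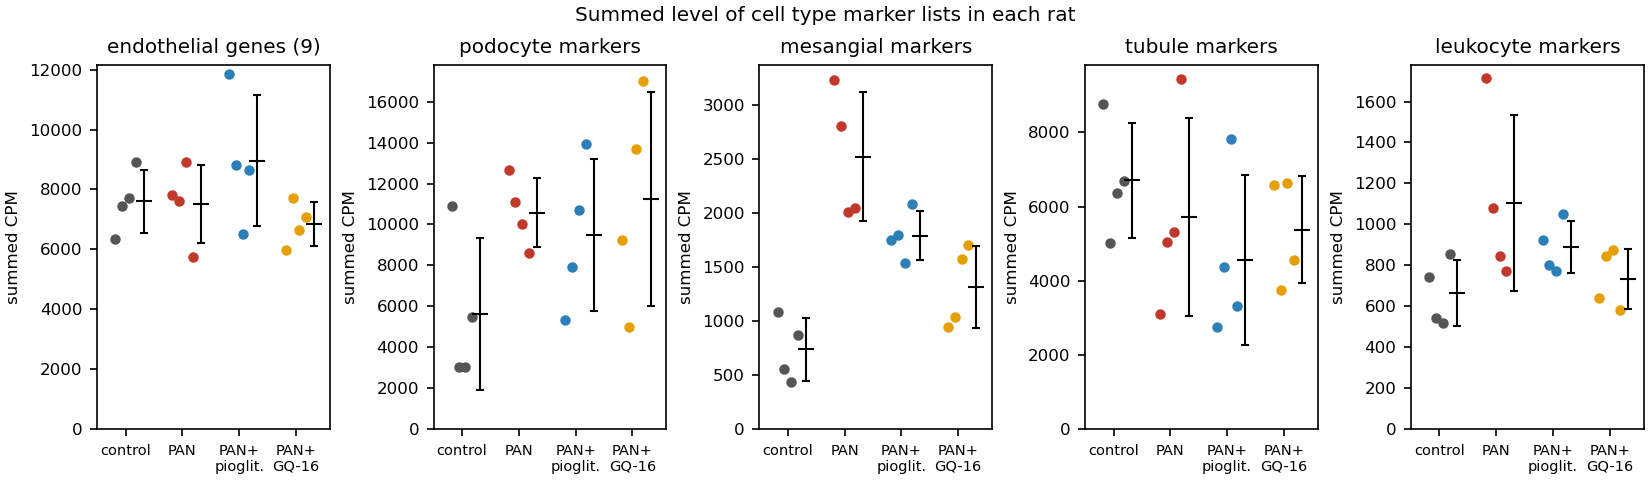
Summed CPM (vertical axis, from 0) of the 9 endothelial genes and of podocyte, mesangial, tubule and leukocyte marker lists in each rat (points), with group mean and SD (n = 4). The mesangial sum is 2008 CPM or more in all 4 PAN rats and 1082 CPM or less in all 4 control rats, while the endothelial sum overlaps between all groups.

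Across the 16 rats, after median-ratio scaling, most of the genes varied together. The median Pearson r of a gene with the other 8 was 0.92 for Kdr and Tie1, 0.90 for Flt1 and Emcn, 0.86 for Tek and 0.85 for Cdh5. It was 0.61 for Ehd3, 0.45 for Eng and -0.50 for Plvap, the one gene of the 9 with a value below 0. With each group's mean removed, the values were 0.63 for Ehd3, 0.79 for Eng and -0.07 for Plvap. Eng thus followed the other genes within groups more closely than across them. These are descriptions over 16 libraries that share their depth and scaling.

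Outside the 9, the genes most like their mean profile over the 16 libraries after median-ratio scaling were Ephb4 (r = 0.984), which encodes a venous ephrin receptor, AABR07002677.2 (r = 0.981), Fgd5 (r = 0.977), Ece1 (r = 0.976), the endothelin-converting enzyme, and Epas1 (r = 0.976), a hypoxia-inducible factor. On the CPM scale they were Afap1l1 (r = 0.9768), Sh3bp5 (0.9665), Arap3 (0.9652), AABR07002677.2 (0.963) and Ephb4 (0.9619). The mean of the podocyte markers had r = -0.73 with the mean of the 9 genes after median-ratio scaling, and -0.28 on the CPM scale. For mesangial markers r was -0.17 and 0.17 on these scales, for tubule markers -0.15 and -0.62, and for leukocyte markers 0.45 and 0.41. All of these profiles come from the same 16 libraries and share their depth.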

How the data were processed

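Poly(A) RNA of glomeruli from 16 rats, 4 in each of 4 labelled groups, was analysed from 1 table. The authors deposited log2 CPM (counts per gene over the library total, on a log2 scale) for 13222 genes. HISAT2, featureCounts, Subread and limma and the genome build Rnor_6.0 are named in the submitters' processing notes, without versions or settings. The deposited log2 values carry offsets of 0.5 read per gene and 1 read per library total, and removing these gave whole reads (tolerance 0.1 read) for 100% of values. Libraries of a group differed beyond counting noise, so none was merged. Intervals and floors from reads cover counting error only. Copies of a gene that share reads were not separated.

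Group means were compared on log2(CPM + 1) by limma 3.58.1 in R 4.3.3 with a variance trend, 1 model over all 16 libraries and Benjamini-Hochberg adjustment over all 13222 genes. A gene is called at adjusted p under 0.05, and changes are on the log2(CPM + 1) scale. This model was the planned test for a log2 table, and voom in limma on recovered reads served as the count-model alternative. Ratios of 2 genes were compared by exact two-sided permutation tests over 70 assignments. The limma step was tested on simulated data. Alternatives were median-ratio scaling, quantile normalization, a pseudocount of 0.1, the 2 compared groups only, covariates, a mean of at least 10 CPM, voom and leaving out each rat. Combining median-ratio scaling with the library number, and keeping libraries numbered 15 or lower, were chosen after seeing the data.

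The genes, the other lists and the naming rule were chosen with earlier results of these data known. The rule gives all 9 genes in full. Of each of the 7 other endothelial and pathway lists it gives counts, the median, the 3 called genes with the smallest p in PAN minus control, and Vegfa, Angpt1, Angpt2, Acvrl1, Plat, Nos3, Cldn5 and Erg. Cldn5 was not analysed here. One gene that the rule names is not reported here. The genes most alike are the 5 with the highest Pearson r to the mean standardized profile after median-ratio scaling, with those of the CPM scale given beside them. Replicate numbers are in accession order and pair no rats.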

Additional observations from a re-analysis of the deposited data

Results flagged for a closer look

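In 2 of 48 groups of 4 rats, 1 rat lay far from the other 3 by Dixon's test at the 95% level, where 2.4 would be set apart by chance. The Tie1 to Tek log2 ratio of GQ-16 replicate 4 was 0.0245, beside 0.46 to 0.54 in the other GQ-16 rats, and the gap was 0.849 of the group's range. The Plvap to Ehd3 log2 ratio of pioglitazone replicate 1 was -4.15, beside -3.22 to -3.06 in the other pioglitazone rats, and the gap was 0.853 of the range.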

How the results depend on the processing

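Each rat is 1 of 4 in its group, so the 95% intervals set what was detectable, and none of the 9 genes was near the floor that depth sets. Single-gene values under alternatives other than leaving out a rat numbered 440, of which 18 lost the call with their sign kept, 1 gained it and 29 changed sign. Among the last, Eng in PAN minus control also lost its call. With 1 rat left out there were 640, of which 10 lost the call with their sign kept, 1 gained it and 13 changed sign. The cause was not tested. Plvap in PAN minus control was above 0 in all of these fits and was called in all but those with only the libraries numbered 15 or lower, where 1 PAN rat is left.

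Among the values counted above, signs changed as follows. In PAN minus control, Ehd3 was -0.208 with median-ratio scaling, -0.198 with quantile normalization and -0.203 with voom, Cdh5 was 0.162 with the podocyte score as covariate, and Eng was -0.173 with median-ratio scaling and the libraries numbered 15 or lower. In pioglitazone minus PAN, Eng was 0.00669 with the library number as covariate and 0.0271 with median-ratio scaling as well, and 0.489 and 0.559 with the low-numbered libraries without and with median-ratio scaling. In GQ-16 minus PAN, Eng was 0.061 and 0.17 in those last fits, Tie1 0.244 and 0.352, and Cdh5 0.402 and 0.51. Tie1 was also 0.121 with median-ratio scaling, 0.103 with quantile normalization and with the library number, 0.168 with both library number and median-ratio scaling, and 0.14 with voom. Cdh5 was also 0.0272 with quantile normalization, 0.0185 with library number and median-ratio scaling and 0.0261 with voom. In GQ-16 minus control, Eng was -0.0586 with median-ratio scaling, -0.0659 with quantile normalization, -0.0898 with median-ratio scaling and library number, -0.0347 with voom and -0.0039 with median-ratio scaling and the low-numbered libraries. In that last fit Plvap in GQ-16 minus pioglitazone was 0.000862. Outside the counted values, signs also changed in pioglitazone minus control with median-ratio scaling. Kdr went from 0.0468 to -0.173, Flt1 from 0.00651 to -0.213, Tie1 from 0.128 to -0.0911 and Emcn from 0.172 to -0.0477. Cdh5, Tek and Ehd3 kept their signs there.

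With 1 rat left out, some changes among the values counted above crossed 0. In GQ-16 minus PAN they ran from -0.0833 to 0.251 for Kdr, -0.0497 to 0.239 for Flt1, -0.143 to 0.09 for Tek and -0.0988 to 0.112 for Tie1. They ran from -0.131 to 0.134 for Cdh5 in PAN minus control, -0.322 to 0.0135 for Eng in pioglitazone minus PAN, and -0.163 to 0.0447 for Plvap in GQ-16 minus pioglitazone. The Flt1 to Kdr log2 ratio ran from -0.0703 to 0.0995 in GQ-16 minus PAN, -0.145 to 0.025 in GQ-16 minus pioglitazone and -0.0953 to 0.00129 in pioglitazone minus control, and Tie1 to Tek from -0.0627 to 0.109 in GQ-16 minus PAN.

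Of the 9 genes, the count called in PAN minus control was 1 with median-ratio scaling, the library number, both of these, the podocyte score, the 2 groups alone and voom, and 0 with the low-numbered libraries on either scale. In pioglitazone minus control it was 0 in those fits other than the library number alone, and with quantile normalization. With 1 rat left out these counts ran from 1 to 2 and from 0 to 1, and from 0 to 1 in GQ-16 minus control.

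Of all genes, 2943 were called in PAN minus control, and 1141 with median-ratio scaling, 1139 with quantile normalization, 1580 with the 2 groups alone, 393 with the library number, 379 with both library number and median-ratio scaling, 745 with the podocyte score, 1047 with voom, and 79 and 47 with the low-numbered libraries without and with median-ratio scaling. Without 1 rat the count was 4964 (control replicate 1) at most and 838 (control replicate 3) at least, and it also moved by over 1.5 times without control replicate 2 (860) or PAN replicate 1 (1049), 2 (1317) or 3 (1958). Pioglitazone minus control gave 659, and 376 with median-ratio scaling, 381 with quantile normalization, 399 with library number and median-ratio scaling, 362 with the podocyte score, 393 with a mean of at least 10 CPM, 250 with voom, and 285 and 266 with the low-numbered libraries without and with median-ratio scaling. Without 1 rat it ran from 48 (control replicate 2) to 1660 (control replicate 1), with 65 without control replicate 3 and 57 and 172 without pioglitazone replicates 2 and 4. GQ-16 minus control gave 20, and 98 with median-ratio scaling, 67 with quantile normalization, 33 with the library number, 83 with both library number and median-ratio scaling, 11 with the podocyte score, 35 with voom, and 144 and 170 with the low-numbered libraries without and with median-ratio scaling. Without 1 rat it ran from 0 (GQ-16 replicate 3) to 1572 (control replicate 1), with 3 and 2 without control replicates 2 and 3, 37 without PAN replicate 1, 42 without pioglitazone replicate 1 and 155 without GQ-16 replicate 4. GQ-16 minus PAN gave 2, and 42 with the podocyte score, 1 with a mean of at least 10 CPM and 0 with median-ratio scaling, quantile normalization, the 2 groups alone, the library number on either scale, voom and the low-numbered libraries on either scale. Without 1 rat it ran from 0 to 9 (GQ-16 replicate 3), and in pioglitazone minus PAN, where the count was 0, from 0 to 1 (pioglitazone replicate 4).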
